A study of Mus musculus with 7 samples.

Results

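Rest, the gene of the repressor that keeps neuronal genes silent outside the nervous system, and 9 genes of RNA-binding proteins of neurons were followed through the nuclei of mouse small cell lung cancer. The 10 genes are Rest, Srrm4, Rbfox1, Rbfox3, Celf3, Celf4, Nova1, Elavl3, Elavl4 and Ptbp2. They were taken by their symbols from the gene tables of all 4 animals, whatever their counts, and each symbol was found there once among 56941 genes. In tumor-like nuclei Rest was close to 1 CPM (transcripts per 1000000 transcripts of the same nuclei), lower than in each of the 4 classes tested. Of the 9 RNA-binding proteins, 7 to 9 passed as higher than in these classes, where 7.93% to 21.7% of all genes tested did. Ptbp2 passed the test against 1 of these classes. All 4 classes held neuroendocrine transcripts, at 40.8% to 84.3% of the tumor-like level.

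Single-nucleus RNA sequencing (split-pool barcoding, Parse Evercode WT Mega) was carried out on fresh-frozen lung tumors that 4 male mice bore at the experimental endpoint. The RP animals (RP1 and RP2) had Rb1 fl/fl and Trp53 fl/fl, that is, floxed alleles of the tumor suppressors Rb1 and Trp53. The RPC animals (RPC1 and RPC2) shared these alleles and were in addition labelled as lacking Casp8, the gene of caspase 8, an initiator of programmed cell death. All 4 mice inhaled Ad5-CMV-Cre, an adenovirus with the Cre recombinase, at 8 to 12 weeks of age, and its CMV promoter is active in any lung cell that takes up the virus. The comparison of RPC with RP asks how the tumors differ when caspase 8 is lost as well. The 7 libraries of the labels each pool nuclei of all 4 animals, so that the animal was the replicate (n = 2 per genotype).

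The deposited matrices held 8413 to 10865 nuclei and 32299909 to 72446861 transcripts per animal, with more of both in the RPC than in the RP animals, and no cell barcode was shared between animals. After filtering, 38254 of 38353 nuclei remained. Of these, 32319 (84.5%) lay in 11 clusters that carried the neuroendocrine markers of small cell lung cancer and are called tumor-like here. All 18 neuroendocrine markers were above 0 in each animal's tumor-like nuclei, and their summed level was 7064 and 7076 CPM in RP1 and RP2 and 8435 and 9095 CPM in RPC1 and RPC2. In the same nuclei Casp8 was at 56.9 and 60.5 CPM in the RP and at 91.7 and 66.8 CPM in the RPC animals. These counts cover whole genes with their introns and do not resolve deleted exons, so they do not check the genotype, and RP and RPC stand for the animals labelled so. Of 14 marker lists of other cell types, 5 had a higher summed level in the tumor-like nuclei of both RPC than of both RP animals and 4 a lower one. The 13 endothelial markers summed to 758 and 917 CPM in the tumor-like nuclei of RP and to 2198 and 1335 CPM in those of RPC animals, with none at 0, and the 10 markers of peripheral neurons to 14.6 to 43.9 CPM, with up to 2 at 0. The 12 ciliated markers summed to 108 and 105.0 CPM in RP and to 189 and 192 CPM in RPC animals, and the 9 club markers to 15.1 and 27.8 against 65.5 and 53.5 CPM, with none at 0. Their part in the results below was not tested. The other classes, named from marker genes, are reconstructions and all held neuroendocrine transcripts, at 8.37% to 100.6% of the tumor-like level.

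REST binds a DNA element called RE1 and recruits the corepressors RCOR1 and SIN3A with histone deacetylases, and it silences genes of synapses, ion channels and neuronal splicing in most tissues. SRRM4 is a splicing activator of neuronal microexons, one of which, in the Rest transcript, turns the repressor into a truncated form, so that both genes act against each other in neurons. The RBFOX, NOVA and CELF families and PTBP2 set alternative splicing, and the ELAVL (Hu) proteins bind uridine-rich stretches and stabilize transcripts. Small cell lung cancer is a neuroendocrine tumor, and loss of REST activity and raised SRRM4 are known from neuroendocrine cancers.

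To see where the RE1 letters lie in these genes, the mouse genome (GRCm39, genes of GENCODE vM39) was searched on both strands for the half-sites CAGCACC and GGACAG, in this order and with 2 bases of any kind between them. The 13 set letters occurred 620 times in the genome. The matches in 4 of the 10 genes, with 5 bases of context on each side and the searched stretch in capitals, are shown in the direction of the motif because the element is the known link between REST and its targets. Celf3 (chr3:94385602-94399505, plus strand) had a match 274 bases before its start, at chr3:94385321-94385335, which is inside the span of its neighbor Riiad1. Rbfox3 (chr11:118380442-118802423, minus strand) had a match 4838 bases downstream of its start, at chr11:118797578-118797592, and another at chr11:118475782-118475796, both intronic. The single match of Srrm4 (chr5:116577334-116729924, minus strand) was intronic, at chr5:116656314-116656328. Of the 5 intronic matches of Rbfox1 (chr16:5124665-7230343, plus strand) the one nearest to its start, at chr16:5583207-5583221, is given.
Celf3 upstream: tcttcCAGCACCGGGGACAGctcca
Rbfox3 intron near the start: ggcggCAGCACCAAGGACAGggcta
Rbfox3 distal intron: gggttCAGCACCAGGGACAGtaaca
Srrm4 intron: tggttCAGCACCGCGGACAGtggct
Rbfox1 intron: gtggtCAGCACCACGGACAGctacc

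Celf4 held 2 matches, 1 in an intron and 1 in an exon. For Rest, Nova1, Elavl3, Elavl4 and Ptbp2 these letters were not found inside the gene or within 50 kb of its start. A match within 5 kb of the start was present in 2 of the 10 genes (Rbfox3 and Celf3, 20%), in 146 of 21757 protein-coding genes (0.671%) and in 14 of 42 textbook REST targets (33.3%). Within 50 kb the values were 2 of 10, 790 of 21757 (3.63%) and 20 of 42 (47.6%). The spans of the 10 genes held 10 matches in 3.376 Mb (2.962 per Mb), compared to 372 in 1107 Mb (0.3362 per Mb) for all protein-coding genes. A match describes letters, not binding, and none of these measurements looked at REST on the DNA.

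Rest was at the bottom of the 10 genes in tumor-like nuclei. RP1 and RP2 held 23 and 39 of its transcripts and RPC1 and RPC2 57 and 58, or 0.835, 1.44, 1.08 and 1.28 CPM. The 177 transcripts of 32319 nuclei are 1.16 CPM with a 95% exact Poisson interval of 0.996 to 1.35, and such intervals cover counting error only. The genotypes overlapped, and edgeR gave a log2 fold change (RPC over RP) of 0.00 ± 0.41 (SE, n = 2 against 2, adjusted p = 0.999). Over the 7 sublibraries this log2 difference ranged from -1.48 to 1.40, so that no difference was detectable at this depth.

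The RNA-binding proteins were at 23.4 to 1590.2 CPM in the same nuclei, as the plot of the 10 genes by animal shows. Celf4, a regulator of synaptic transcripts and of excitability, was at 1495 and 1590.2 CPM in RP and at 1430.2 and 1514 CPM in RPC animals. Celf3, its close relative, was at 173 and 156 CPM in RP and at 138 and 142 CPM in RPC animals. Celf4 overlapped between the genotypes, and Celf3 was slightly lower in both RPC animals.

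The splicing activator Srrm4 was at 355 and 389.8 CPM in the RP and at 306 and 248 CPM in the RPC animals. Rbfox3, known to histologists as the neuronal nuclear antigen NeuN, was at 49.2 and 43.2 CPM in the RP and at 28.4 and 23.4 CPM in the RPC animals. Both genes were lower in each RPC than in each RP animal. Rbfox1 was the most uneven gene, with 471 and 366 CPM in RP1 and RP2, 234 CPM in RPC1 and 1156 CPM in RPC2, so that the RPC animals lay on either side of the RP animals.

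Nova1, a splicing factor of motor neurons and brain stem, was at 120.1 and 126 CPM in the RP and at 238 and 152 CPM in the RPC animals. Ptbp2, which takes the place of the general splicing repressor Ptbp1 in young neurons, was at 157 and 145 CPM in the RP and at 246 and 239.6 CPM in the RPC animals. These 2 genes were higher in each RPC than in each RP animal. The neuronal Hu proteins overlapped between the genotypes, with Elavl3 at 264 and 270.5 CPM in RP and 244 and 346 CPM in RPC animals. Elavl4 was at 209 and 166 CPM in RP and 186 and 200.5 CPM in RPC animals.

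**Figure D1:**
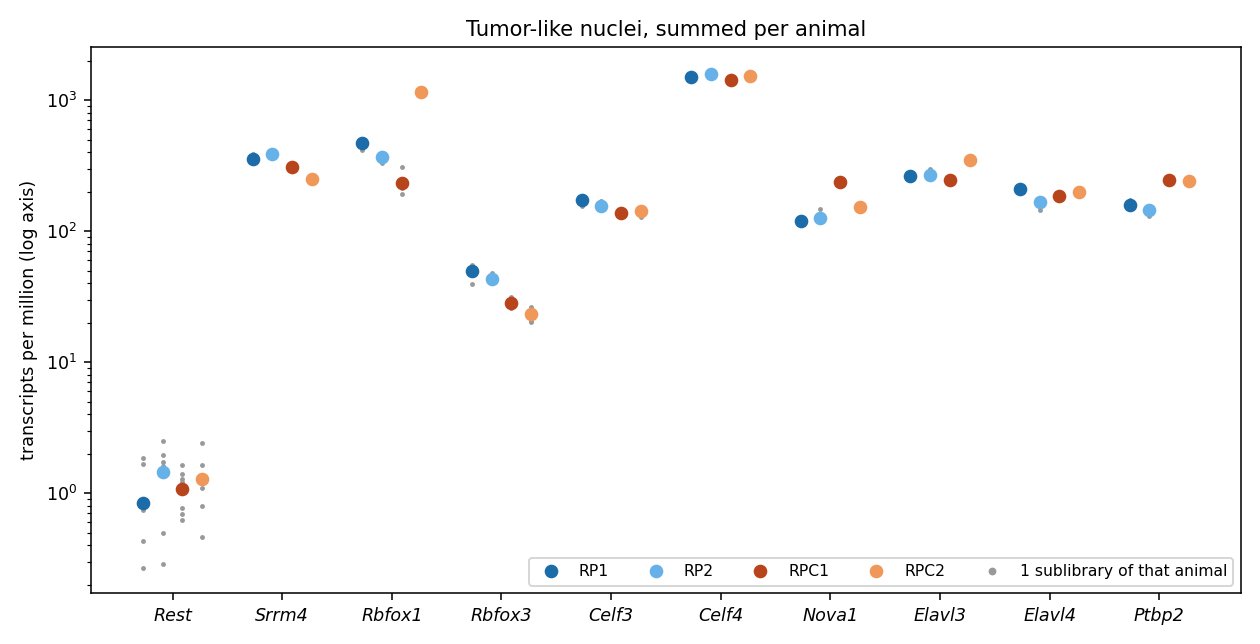
CPM (log axis) of the 10 genes in tumor-like nuclei, with 1 colored point per animal and small grey points for the 7 sublibraries of that animal (sublibraries with 0 Rest transcripts cannot be drawn). Rest lay at 0.835 to 1.44 CPM, far below the other genes, and Rbfox1 differed most between animals, from 234 to 1156 CPM.

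Because counts of nuclear RNA grow with the length of a gene, levels of different genes were compared per 10 kb of gene span, as the mean and range over the 4 animals. Celf3 led with a mean of 109.6 CPM per 10 kb (99.1 to 125), ahead of Elavl3 with 76.0 (65.9 to 93.5) and Celf4 with 54.4 (51.6 to 57.4), and these ranges did not overlap. Ptbp2 (28.6, from 21.0 to 35.8) and Srrm4 (21.3, from 16.3 to 25.5) followed with overlapping ranges. Elavl4 (12.8) and Nova1 (12.7) could not be told apart either. Rbfox1, the longest of the 10 genes, fell to 2.64 CPM per 10 kb (1.11 to 5.49), and Rbfox3 was at 0.855 (0.555 to 1.17). Rest, at 0.444 CPM per 10 kb (0.319 to 0.551), was the lowest on this scale too, its highest animal lying just under the lowest animal of Rbfox3.

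Among the other classes Rest was highest in club-like, mesothelial-like and alveolar type 2-like nuclei. In club-like nuclei, the secretory cells of the airway, it was at 24.3 and 28.3 CPM in RP and at 25.7 and 42.2 CPM in RPC animals (51 transcripts in 426 nuclei, pooled 28.7 CPM, 95% interval 21.4 to 37.7). Pooled levels were 27.1 CPM in mesothelial-like nuclei (9 transcripts) and 26.7 CPM in alveolar type 2-like nuclei (19 transcripts), and the intervals of these 3 classes overlapped. In the same order of animals, macrophage- or monocyte-like nuclei held 5.38, 15.8, 26.6 and 17.4 CPM, and B cell-like nuclei 17.8, 7.50, 19.7 and 17.3 CPM. Ciliated-like and alveolar type 1-like nuclei, also epithelial, both had a pooled level of 15.5 CPM. Endothelial-like nuclei were even, with 14.8, 13.5, 12.1 and 12.3 CPM from 3 or 4 transcripts each.

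Fibroblast-like, smooth muscle- or pericyte-like, unnamed and T or NK cell-like nuclei came last, at pooled levels of 9.73, 9.0, 8.25 and 7.81 CPM. Even the lowest bound of these intervals, 3.14 CPM in T or NK cell-like nuclei, lay above the upper bound of 1.35 CPM in tumor-like nuclei. Rest was 0 in the fibroblast-like nuclei of RPC1 and in the T or NK cell-like nuclei of RP1. No neighbors in this order had intervals apart except the last pair, tumor-like nuclei and the class above them. The neuroendocrine markers were at 8.37% to 24.0% of the tumor-like level in club-like, 16.9% to 42.2% in alveolar type 2-like and 21.8% to 51.4% in mesothelial-like nuclei. They were at 67.8% to 86.3% in B cell-like, 68.2% to 83.7% in T or NK cell-like and 76.5% to 100.6% in unnamed nuclei. The part of carried-over tumor RNA in these levels was not tested.

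**Figure D2:**
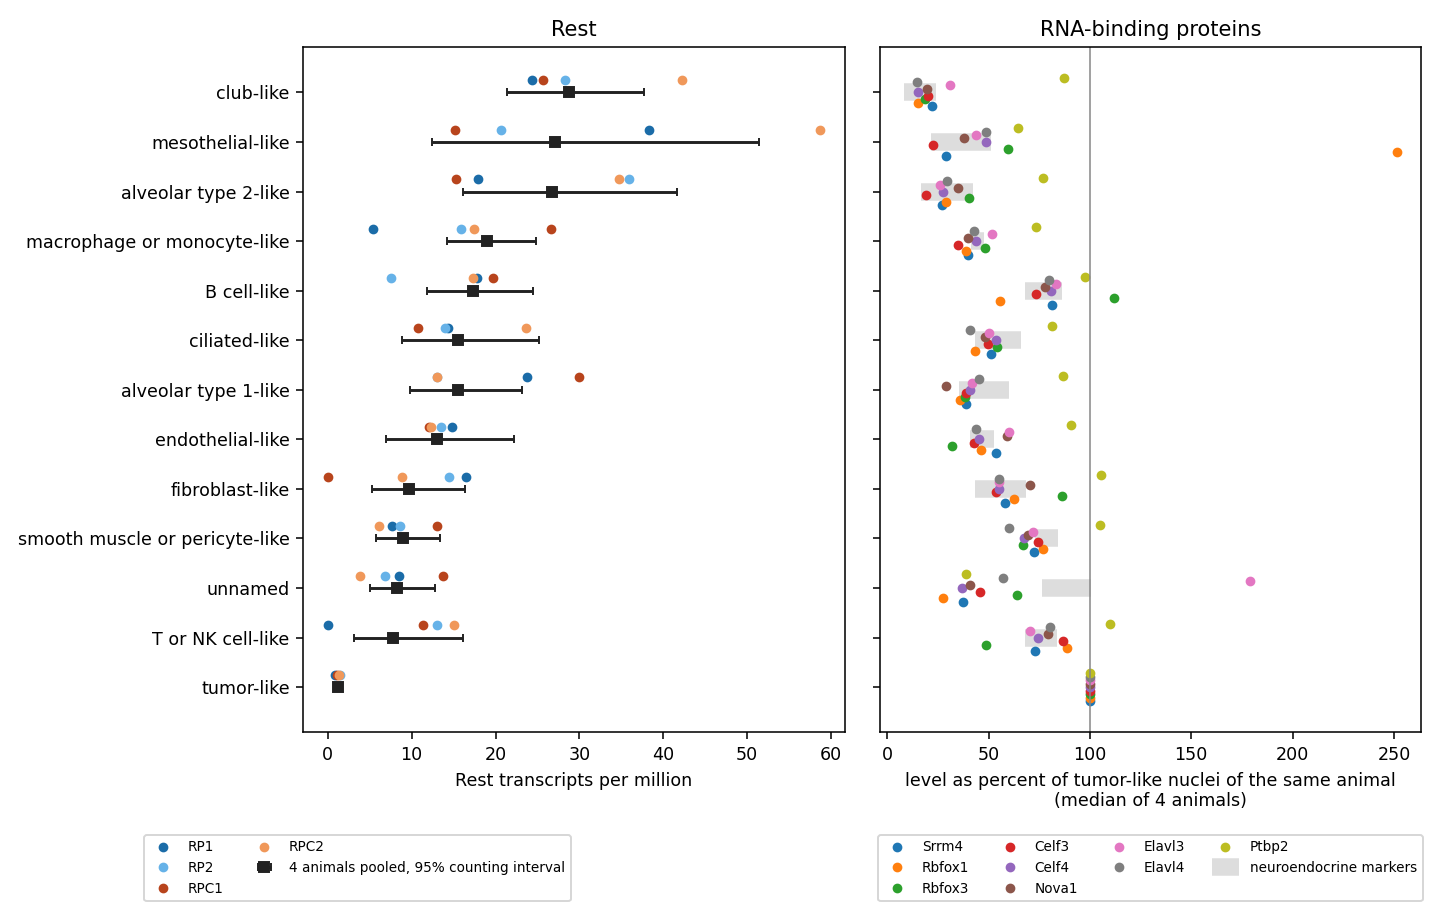
Left, the Rest level in CPM in each class, with 1 colored point per animal and a square with the 95% counting interval for the 4 animals pooled. Right, the 9 RNA-binding protein genes as percent of the tumor-like level of the same animal (median of 4 animals), with grey bars for the range of the neuroendocrine markers over the animals and a line at 100%. Tumor-like nuclei had the lowest Rest level, 1.16 CPM, and Ptbp2 stayed at 73.6% or more of the tumor-like level in 10 of the 12 classes.

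Tumor-like nuclei were then tested against 4 classes with edgeR, with the sums of both classes from each animal and the animal as a block, so that a difference is tested across 4 animals. Against endothelial-like and fibroblast-like nuclei edgeR set each gene's variance to the trend over all genes. The p-values against these classes therefore do not measure a gene's own spread between animals. Against macrophage- or monocyte-like and smooth muscle- or pericyte-like nuclei edgeR drew each gene's variance toward this trend. The weight of the trend was 19.5 and 19.1 prior degrees of freedom, so these p-values measure that spread only in part. The 10 genes were kept out of the genes used for clustering and are on no marker list, but the classes were built from the same nuclei. The neuroendocrine markers of these classes were at 40.8% to 52.8% (endothelial-like), 41.3% to 47.5% (macrophage- or monocyte-like), 73.1% to 84.3% (smooth muscle- or pericyte-like) and 43.3% to 68.3% (fibroblast-like) of the tumor-like level. Rest was lower in tumor-like nuclei in all 4 tests. Its log2 difference was -3.44 ± 0.70 (SE, adjusted p = 7.65e-06) against endothelial-like nuclei and -3.76 ± 0.46 (adjusted p = 3.92e-07) against macrophage- or monocyte-like nuclei. It was -2.91 ± 0.50 (adjusted p = 0.000148) against smooth muscle- or pericyte-like and -2.89 ± 0.68 (adjusted p = 0.000288) against fibroblast-like nuclei.

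The RNA-binding proteins lay on the other side. Against endothelial-like nuclei 8 of the 9 passed the test as higher in tumor-like nuclei, where 26.4% of all 16040 genes passed (14.9% as higher and 11.6% as lower). Against macrophage- or monocyte-like nuclei it was 9 of 9 (39.3% of 16896 genes, 21.7% as higher and 17.5% as lower). Against smooth muscle- or pericyte-like nuclei it was 7 of 9 (16.3% of 16738 genes, 7.93% as higher and 8.37% as lower), and against fibroblast-like nuclei 7 of 9 (17.5% of 16326 genes, 8.23% as higher and 9.25% as lower). The median log2 difference of all genes tested was 0.22, 0.18, 0.12 and 0.18 in these tests, and that of the 10 genes with Rest was 1.09, 1.26, 0.45 and 0.82.

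The smallest adjusted p-values against endothelial-like nuclei belonged to Celf4 and Rbfox1. Celf4 was higher in tumor-like nuclei by a log2 difference of 1.20 ± 0.13 (SE, adjusted p = 9.91e-19) against endothelial-like and 1.22 ± 0.10 (adjusted p = 5.68e-10) against macrophage- or monocyte-like nuclei. Rbfox1 was higher by 1.37 ± 0.15 (adjusted p = 1.29e-17) and 1.44 ± 0.12 (adjusted p = 5.18e-10), and by 0.38 ± 0.10 (adjusted p = 0.0125) and 0.78 ± 0.18 (adjusted p = 0.000256) against smooth muscle- or pericyte-like and fibroblast-like nuclei.

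Celf3 was higher in tumor-like nuclei by a log2 difference of 1.29 ± 0.20 (SE, adjusted p = 1.50e-09) against endothelial-like and 1.65 ± 0.15 (adjusted p = 2.95e-09) against macrophage- or monocyte-like nuclei. Srrm4 was higher by 0.98 ± 0.16 (adjusted p = 8.31e-09) and 1.41 ± 0.12 (adjusted p = 5.76e-10). The log2 differences of the CELF, NOVA and ELAVL genes lay between 0.83 and 1.65 in these 2 tests and between 0.44 and 0.88 in the other 2. Rbfox3 gave 1.84 ± 0.41 (adjusted p = 7.10e-05) against endothelial-like and 0.97 ± 0.24 (adjusted p = 0.00243) against macrophage- or monocyte-like nuclei, but 0.39 ± 0.23 (adjusted p = 0.312) and 0.32 ± 0.28 (adjusted p = 0.532) against the other 2 classes, from at most 75 transcripts per class. With the deep clusters of mixed markers kept in their classes, the first 2 values of Rbfox3 became 0.37 (adjusted p = 0.216) and 0.30 (adjusted p = 0.183). Over 9 alternative settings, the lowest values of the other RNA-binding proteins except Ptbp2 were 0.30 (Elavl3) to 0.57 (Rbfox1) against endothelial-like nuclei. Against macrophage- or monocyte-like nuclei they were 0.41 (Elavl3) to 0.71 (Srrm4), so the size of these differences depended on the setting.

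Ptbp2 differed from the other RNA-binding proteins. Its log2 difference was 0.15 ± 0.16 (SE, adjusted p = 0.582) against endothelial-like, -0.01 ± 0.10 (adjusted p = 0.986) against smooth muscle- or pericyte-like and -0.00 ± 0.18 (adjusted p = 0.991) against fibroblast-like nuclei, all from edgeR. Of the 4 classes tested, macrophage- or monocyte-like nuclei alone gave a difference that passed, with tumor-like nuclei higher by 0.52 ± 0.12 (adjusted p = 0.00127). Club-like nuclei, in which the neuroendocrine markers were lowest (8.37% to 24.0%), held 77.5% to 98.3% of the tumor-like Ptbp2 level of the same animal. For the other 8 RNA-binding proteins the median share in club-like nuclei was 14.8% to 30.8%. Thus Ptbp2 lay far above the share that the neuroendocrine markers reached in this class, and the other genes lay close to it.

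Mesothelial-like nuclei, the lining of the lung surface, held more Rbfox1 than any other class, at a pooled 954 CPM (95% interval 852 to 1065) against 573 CPM in tumor-like nuclei, although this class had only 56 nuclei. The unnamed nuclei, which were shallow and rich in ribosomal RNA, had neuroendocrine markers at 76.5% to 100.6% of the tumor-like level of the same animal. They held Elavl3 at 154% to 209% of that level and the other 8 RNA-binding proteins at medians of 27.7% to 64.1%.

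Over the 36 points of 9 classes and 4 animals, the genes most like single members in log2(CPM + 5) were looked up among 7844 genes. These points share animals, libraries and tumor RNA, so the correlations only describe. Elavl4 was most like Ddc (Pearson r = 0.86) and Ncam1 (0.85), both neuroendocrine markers. Ptbp2 was most like the broadly expressed transcription factor gene Tcf12 (0.90), Nova1 most like Syt17 (0.88), Srrm4 most like Mdga2 (0.86), Rbfox1 most like Sox6 (0.85) and Rbfox3 most like Bsn (0.80). Celf3 followed Hnrnpr (0.91) and Elavl3 followed Ssrp1 (0.89). Rest was most like Trim30a and Msn (both 0.70), and its correlation with the 9 other genes was between -0.52 and -0.02.

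In the comparison of RPC with RP in tumor-like nuclei, none of the 10 genes passed the edgeR test, in which 0 of 20065 genes (0%) were called. At an unadjusted p under 0.05 there were 4 of the 10 genes (Srrm4, Rbfox3, Nova1 and Ptbp2), compared to 15.2% of all genes. The values of the genotypes did not overlap for these 4 and Celf3, 5 of 10, compared to 50.7% of all genes, which is no more than the background. DESeq2 called 629 genes, 334 higher and 295 lower in RPC, among them Rbfox3 alone of the 10.

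Rbfox3 had the largest difference among the genes whose genotypes did not overlap, with a log2 fold change of -0.90 ± 0.18 (SE, edgeR adjusted p = 0.272), and DESeq2 gave -0.85 (adjusted p = 0.0447). Ptbp2 was at 0.63 ± 0.14 (edgeR adjusted p = 0.272), a 1.54-fold higher level, and DESeq2 gave an adjusted p of 0.0658. Srrm4 was at -0.49 ± 0.16 (edgeR adjusted p = 0.299) and Nova1 at 0.60 ± 0.23 (edgeR adjusted p = 0.327).

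The sublibraries are subsets into which the nuclei were divided after barcoding, and each held all 4 animals. The direction held in 7 of 7 sublibraries for Srrm4 (log2 difference -0.51 to -0.34), Rbfox3 (-0.996 to -0.726), Celf3 (-0.32 to -0.13), Nova1 (0.52 to 0.77) and Ptbp2 (0.62 to 0.75). It also held in 7 of 7 for Rbfox1 (0.65 to 0.88), Elavl3 (0.07 to 0.21) and Celf4 (-0.10 to -0.02), whose genotypes overlapped. The sublibraries divide the same animals, so this shows the counting error and not the spread between animals. Rbfox1 was at 0.68 ± 0.72 (edgeR adjusted p = 0.666) and rested on RPC2: without that animal the log2 fold change was -0.90, and without RPC1 it was 1.43. Celf4 (-0.13 ± 0.16), Elavl3 (0.09 ± 0.21) and Elavl4 (-0.02 ± 0.18) had genotypes that overlapped, with edgeR adjusted p of 0.731, 0.864 and 0.973.

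**Figure D3:**
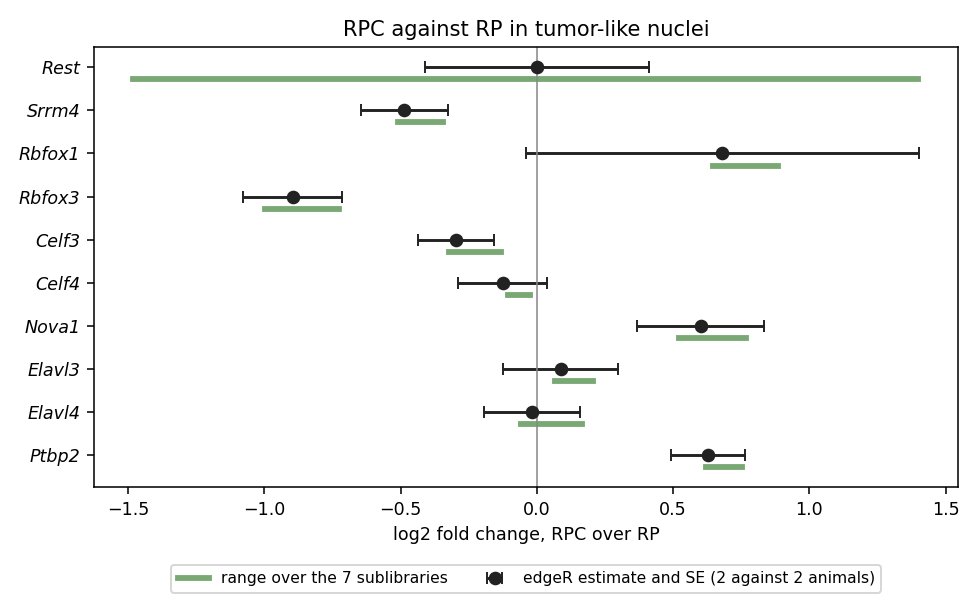
Log2 fold change of RPC over RP in tumor-like nuclei for each of the 10 genes, as the edgeR estimate with its standard error (2 against 2 animals, black) and as the range over the 7 sublibraries (green). With every sublibrary Ptbp2, Nova1, Rbfox1 and Elavl3 lay to the right of 0 and Rbfox3, Srrm4, Celf3 and Celf4 to the left of it. Rbfox1 had the widest bar (SE 0.72), and the genotypes overlapped for Rbfox1, Elavl3 and Celf4.

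The genes around them on the chromosome were set beside these values. The 69 tested genes within 5 Mb of Ptbp2 had a median log2 fold change of 0.16, and 82.6% of them were below Ptbp2. For Nova1 the median of 20 neighbors was 0.29, for Rbfox3 that of 208 neighbors -0.21 (7.21% below Rbfox3), and for Srrm4 that of 141 neighbors -0.27 (29.8% below Srrm4). All 4 medians had the sign of their gene, and their part in the differences was not tested. Rbfox1 lay above 98.3% of its 60 neighbors, whose median was -0.09.

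Ptbp2 was higher in the RPC animals outside the tumor-like nuclei as well. Of the 8 other classes with at least 20 nuclei in every animal, RPC and RP animals did not overlap for Ptbp2 in 8, always with RPC higher, as the plot by class shows. Nova1 was higher in both RPC animals in 6 of the 8 classes, and Srrm4 was lower in both in 5 of 8. Over 7844 genes of at least 20 CPM on average, 1.47% were higher in both RPC animals in all 8 classes, 8.63% in at least 6 of 8, and 4.64% were lower in at least 5 of 8, and the genotypes did not overlap for 37.2% to 52.1% of these genes in a single class. The classes of an animal share its libraries and its free RNA, so they are not independent.

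In macrophage- or monocyte-like nuclei Ptbp2 was at 108 and 91.0 CPM in RP and 193 and 193 CPM in RPC animals, where neuroendocrine markers were at 41.3% to 47.5% of the tumor-like level. Its log2 fold change was 0.85 ± 0.22 (SE, edgeR adjusted p = 0.284). Nova1 was at 0.96 ± 0.37 (edgeR adjusted p = 0.401) and Srrm4 at -0.51 ± 0.22 (edgeR adjusted p = 0.431). None of the 10 genes passed there, where 3 of 8974 genes (0.0334%) were called and the genotypes did not overlap for 6 of the 10, compared to 45.7% of all genes. Rest was at 0.79 ± 0.54 (edgeR adjusted p = 0.595) in these nuclei, from 2, 12, 29 and 10 transcripts per animal.

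In endothelial-like nuclei, whose neuroendocrine markers were at 40.8% to 52.8%, Ptbp2 was at 128 and 170.5 CPM in RP and at 203 and 237 CPM in RPC animals (log2 fold change 0.46 ± 0.29, SE, edgeR adjusted p = 0.601). Srrm4 was at 216 and 206 CPM in RP and at 167 and 106 CPM in RPC animals (-0.71 ± 0.31, edgeR adjusted p = 0.463). Rest and Rbfox3 were below the count filter there. None of the 8 genes left passed, 0 of 5084 genes (0%) were called, and the genotypes did not overlap for 2 of the 8, compared to 42.9% of all genes. By edgeR 536 genes (10.5%) and 1 of the 8 were at an unadjusted p under 0.05, and DESeq2 called 12 genes.

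Whether tumor-like nuclei and another class had unequal genotype differences was tested by the interaction term of edgeR. None of the 10 genes passed against endothelial-like nuclei, where 37 of 17683 genes (0.209%) were called, or against macrophage- or monocyte-like nuclei, where 103 of 18835 (0.547%) were. For Ptbp2 the difference between the log2 fold changes was 0.07 ± 0.32 (SE, adjusted p = 1) and -0.21 ± 0.24 (adjusted p = 1). Rbfox3 had the largest value, -2.46 ± 1.05 against endothelial-like nuclei (edgeR adjusted p = 0.926), which rests on 10 transcripts in that class.

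**Figure D4:**
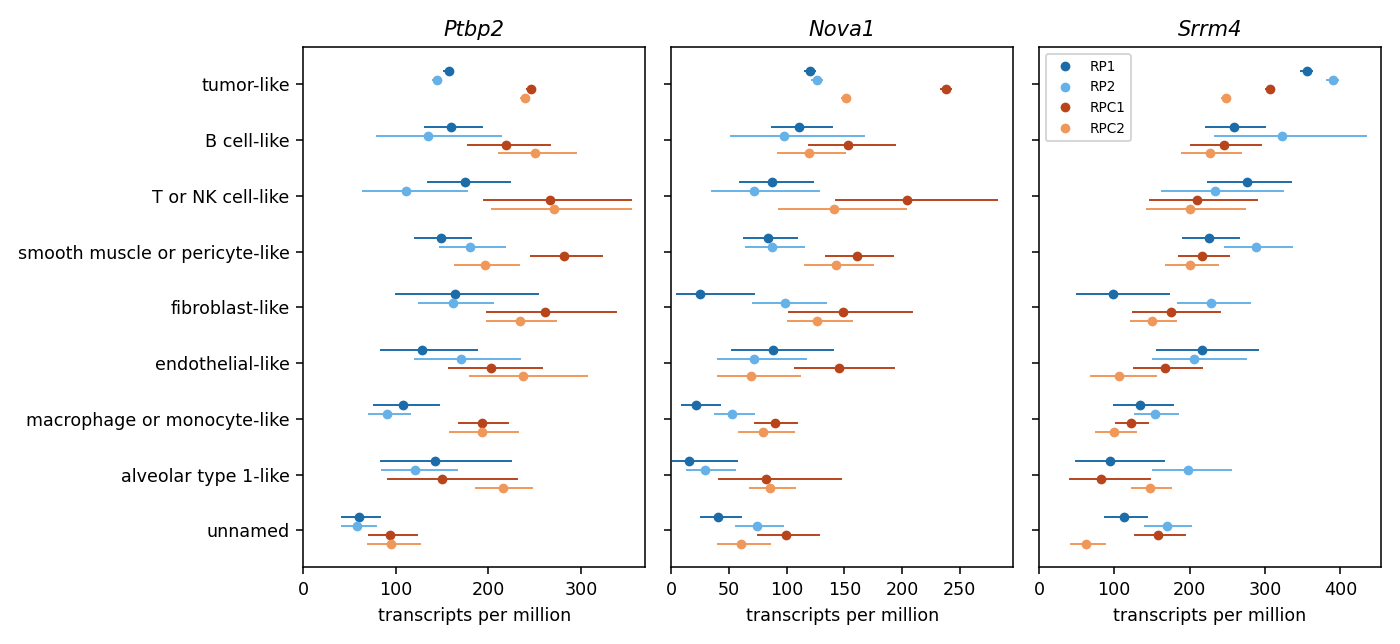
CPM of Ptbp2, Nova1 and Srrm4 in each animal's tumor-like nuclei and in the 8 other classes with at least 20 nuclei in every animal, with exact 95% Poisson intervals (counting error only). For Ptbp2 both RPC animals lay above both RP animals in every class shown, for Srrm4 below them in 5 of the 8 other classes and in the tumor-like nuclei.

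The 11 tumor-like clusters each drew 74.4% to 99.9% of their nuclei from 1 animal. Ptbp2 was at 147 to 158 CPM in the 5 clusters mostly of RP nuclei and at 228 to 278 CPM in the 6 mostly of RPC nuclei. Nova1 was at 114 to 128 CPM and 147 to 388 CPM. In both genes the clusters of the genotypes did not overlap, whereas they did for the other 8 genes, and over the 20065 genes tested they did not overlap for 11%. Clusters of 1 animal are not replicates of a genotype, so these ranges were not tested.

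Rbfox1 varied most, from 74.0 to 1514 CPM, a 20.4-fold range. It varied within animals too: clusters mostly of RP1 held 90.5, 768 and 74.0 CPM, and clusters mostly of RPC1 held 119, 106 and 1137 CPM. The cluster with the highest level, mostly of RPC2, had Rbfox1 among its 10 leading genes. Rbfox3 ranged from 12.1 to 90.4 CPM and Elavl3 from 157 to 490 CPM. Celf4 was almost even, from 1330 to 1675 CPM (1.26-fold).

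Srrm4 and Celf3 were both highest in the same cluster of RP1, at 458 and 252 CPM, and this cluster had the lowest Nova1 level, 114 CPM. It held 2 Rest transcripts (0.349 CPM), too few to rank it. A cluster of 660 nuclei, 589 of them from RPC1, was led by Grik2, Lrrtm4, Erbb4 and Adarb2, which neurons express. It held 20 Rest transcripts (3.12 CPM) and a cluster mostly of RPC2 held 13 (2.44 CPM), too few to rank these clusters. The cluster of 660 nuclei had the highest levels of Rbfox3 (90.4 CPM), Nova1 (388 CPM), Elavl4 (300.2 CPM) and Ptbp2 (278 CPM) of all 11 clusters. It had the lowest level of Celf4. Its neuroendocrine markers summed to 7690 CPM, within the range of the other clusters (6116 to 10770). Leaving it out, an alternative chosen after the data had been seen, moved the Rest log2 fold change from 0.00 to -0.14.

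**Figure D5:**
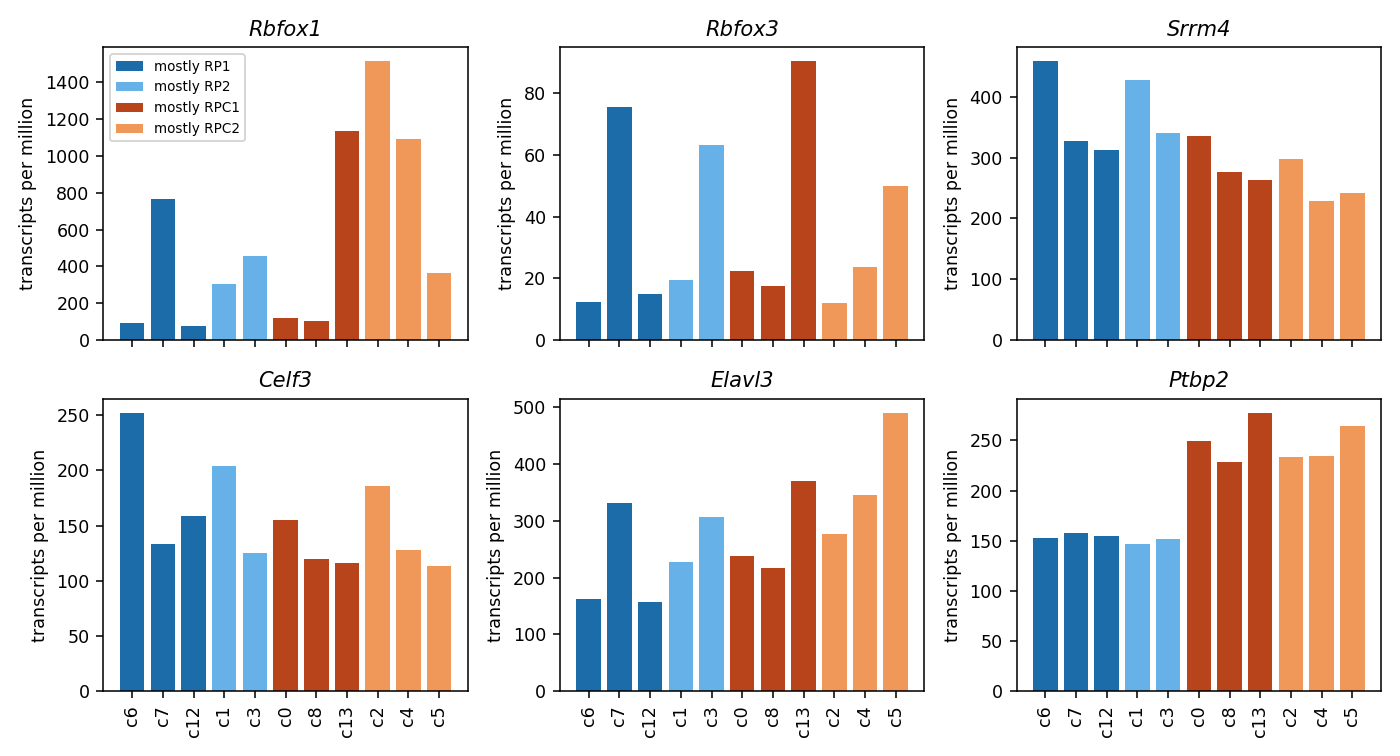
CPM of 6 of the genes in the 11 tumor-like clusters, with each cluster as 1 bar colored by the animal that gave most of its nuclei (axes from 0). Rbfox1 and Rbfox3 varied between clusters of 1 animal, while Ptbp2 was at 147 to 158 CPM in all clusters of RP and at 228 to 278 CPM in all clusters of RPC animals.

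The same genes were counted as shares of nuclei with at least 1 transcript, after each nucleus had been thinned to 1000 transcripts, since RPC nuclei were deeper (medians of 3366 and 2957.5 transcripts against 2584 and 2492 in RP). This left out 833 and 775 shallower tumor-like nuclei in RP and 153 and 450 in RPC animals. Ptbp2 was found in 13.9% and 13.7% of nuclei of the RP and in 21.4% and 21.7% of the RPC animals. Without thinning the same nuclei gave 38.5% and 35.7% against 58.8% and 54.6%. Nova1 was found in 10.96% and 12.1% against 19.8% and 14.1%, Srrm4 in 28.9% and 30.3% against 26.5% and 20.6%, and Rbfox3 in 4.12% and 4.11% against 2.61% and 2.30%. These 3 and Celf3 and Ptbp2 did not overlap between the genotypes, 5 of 10, compared to 46.6% of the 20065 genes tested, so the members were at the background. The exact permutation test over 2 against 2 animals gave p = 0.33 (two-sided), the smallest it can give.

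The shares of non-tumor classes, in which free RNA and transcripts of their own were not told apart, were set beside these. The Ptbp2 shares of endothelial-like nuclei (median depth 1796.5 to 2681.5 transcripts, thinned alike) were 14.2% in RP and 19.7% in RPC animals, and those of macrophage- or monocyte-like nuclei 12.1% and 16.4%, as means of 2 animals. So the tumor-like share of Ptbp2 (means 13.8% in RP and 21.6% in RPC) was close to that of endothelial-like nuclei. In these means it lay above that of macrophage- or monocyte-like nuclei in both genotypes. Srrm4 was found in 8.78% and 9.13% of endothelial-like nuclei and Rbfox3 in 0.758% and 1.11%, well below their tumor-like shares. In macrophage- or monocyte-like nuclei Srrm4 was found in 7.81% (RP) and 8.14% (RPC). By share, unlike by CPM, Srrm4 was thus not lower in RPC in these 2 classes. Nova1 was found in 9.72% (RP) and 6.91% (RPC) of endothelial-like and in 2.16% and 7.92% of macrophage- or monocyte-like nuclei. Celf4 was found in 72.4% to 75.5% of tumor-like nuclei, against 26.3% (RP) and 25.2% (RPC) of endothelial-like nuclei. Rest was found in 0.0946% to 0.217% of thinned tumor-like nuclei and in 1.08% and 2.96% of macrophage- or monocyte-like nuclei.

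The partners and targets of these genes were taken from 4 lists. Of 20 REST cofactors, 5 were higher and 15 lower in RPC tumor-like nuclei, with 0 called, a median log2 fold change of -0.16 and -0.01 over all genes. The smallest p-values belonged to Hdac1, a histone deacetylase of the REST complex (-0.73, edgeR adjusted p = 0.275), and Rcor1, the corepressor CoREST (-0.49, edgeR adjusted p = 0.283). Of 39 tested REST targets, 16 were higher and 23 lower, with 0 called and a median of -0.08. The sodium channel gene Scn2a was at 1.19 and the synaptic release gene Unc13a at -0.70 (edgeR adjusted p = 0.283 and 0.275).

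Of 25 other neuronal or tissue-restricted RNA-binding proteins, 13 were higher and 12 lower in RPC, with 0 called and a median of 0.04, and Rbm38 had the largest named value (-1.47, edgeR adjusted p = 0.270). Of 22 broadly expressed counterparts, 9 were higher and 13 lower, with 0 called and a median of -0.15. Among them Ptbp1, which represses Ptbp2, was at 92.0 and 73.9 CPM in RP and at 64.5 and 61.6 CPM in RPC animals. Its log2 fold change was -0.46 ± 0.17 (SE, edgeR adjusted p = 0.321), opposite in sign to that of Ptbp2, and a link between them was not tested. At an unadjusted p under 0.05 the 4 lists had 0, 2, 3 and 0 genes higher and 4, 6, 4 and 4 lower, compared to 15.2% of all genes in both directions.

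Between classes, 28 of 36 tested REST targets were higher and 0 lower in tumor-like than in macrophage- or monocyte-like nuclei by edgeR, with a median log2 difference of 1.22 against 0.18 for all genes. Against endothelial-like nuclei 21 were higher and 2 lower, where 26.4% of all genes were called in either direction (39.3% against macrophage- or monocyte-like nuclei), and Stmn2 was one of the latter (-5.52, adjusted p = 4.85e-23). Of the 20 REST cofactors, 4 were higher and 1 lower against endothelial-like nuclei, a share near the 26.4% of all genes, and 10 were higher and 2 lower against macrophage- or monocyte-like nuclei, among them Kdm1a (0.45 and 0.94, adjusted p = 0.0215 and 5.76e-06) as higher in tumor-like nuclei. The other neuronal or tissue-restricted RNA-binding proteins had 13 higher and 2 lower against endothelial-like nuclei, and Nova2, the relative of Nova1 that vessels also express, was lower (-1.89, adjusted p = 1.46e-29). Of the counterparts, 7 were higher and 1 lower in that test, the lower one being Mbnl1 (-1.01, adjusted p = 8.09e-11).

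Against smooth muscle- or pericyte-like and fibroblast-like nuclei, 15 and 18 REST targets were called higher and 2 and 1 lower by edgeR. The other RNA-binding proteins had 7 higher in each and 2 and 4 lower, with Rbms3 (-1.81 and -2.29, adjusted p = 4.72e-09 and 1.96e-35) and Cpeb1 (-2.36 and -2.25, adjusted p = 1.11e-06 and 2.95e-12) lower in tumor-like nuclei in both. These counts sit on shares of 16.3% and 17.5% of all genes called, and a change of scaling moved the split of higher and lower calls: against endothelial-like nuclei edgeR called 2382 higher and 1854 lower with TMM, 1957 and 1991 with RLE size factors, and DESeq2 1249 and 2204.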

How the data were processed

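Nuclei of fresh-frozen tumors of 4 animals were measured, and the animal was the replicate, as the labels name 2 RP and 2 RPC mice. The deposited matrices hold raw counts, in unique transcript molecules for each gene and nucleus, which the authors made with the Parse pipeline against GRCm39 with Ensembl genes and pooled over 7 barcode sublibraries. Which labelled library each sublibrary suffix belongs to is not known. Of the 12 columns of the nucleus table, 8 were not used.

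Kept nuclei had at least 300 counts, at most 10% of them mitochondrial, and at most 12000 genes. After scaling to a common total and taking logs, 20 principal components were taken from 2000 variable genes without the 10 members. Nuclei were joined to 20 neighbors (scikit-learn 1.9.0) and grouped by Leiden clustering (igraph 0.11.9, leidenalg 0.10.2, resolution 0.4, and 1.5 for non-tumor nuclei, Python 3.11.15). Clusters were named from 15 marker lists. The naming rule, the resolution of 1.5 and the setting apart of named clusters over 2.5 times as deep as the nuclei of their animals were decided after the clusters had been seen, and no doublet caller was used. Nuclei above 4 times the median depth were left out as an alternative.

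Raw counts were summed per animal and class and tested over all genes by edgeR 4.0.16's quasi-likelihood test (R 4.3.3, TMM, filterByExpr, Benjamini-Hochberg adjusted p under 0.05, two-sided), after the code had been tested on simulated data. Standard errors were calculated back from the F statistic. The study used DESeq2 (here 1.42.0), which was kept as an alternative. CPM values are counts per 1000000 of the unscaled sum. Depth limits the precision, and with 2 against 2 animals the p-values of RPC against RP within a class measure the spread between these animals only in part. There edgeR drew each gene's variance toward the trend over all genes. The weight of the trend was 3.13 (tumor-like), 7.96 (endothelial-like) and 6.32 (macrophage- or monocyte-like) prior degrees of freedom. In the interaction tests and those against endothelial-like and fibroblast-like nuclei, edgeR set each gene's variance to the trend over all genes. Those p-values do not measure a gene's own spread between animals. RP1 and RPC1 share only a number. All 10 members were named whatever their values, with genes among the 3 most similar to each (1 gene is not reported here), and of each of the 4 lists the called genes with the smallest p, or, where none was called, the non-overlapping ones, at most 3 each, with a few others named after their values were seen. The members, lists and tests were chosen with earlier results of these data known. Gene coordinates are those of GENCODE vM39, a later annotation of the same assembly. No protein sequences were used here.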

Additional observations from a re-analysis of the deposited data

How the results depend on the processing

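Apart from leaving out animals, 390 of 409 values of single genes kept their direction and, in the edgeR and DESeq2 tests, their side of the threshold. For shares of nuclei only the direction was compared. For RPC against RP in endothelial-like nuclei, the single-gene values cover only Srrm4, Rbfox1, Nova1 and Ptbp2. In macrophage- or monocyte-like nuclei they cover only these genes and Rest. For the interactions they cover Rbfox3 and Ptbp2 (endothelial-like) and Ptbp2 alone (macrophage- or monocyte-like). The other genes were left out there, so the tally does not describe how stable they were in these comparisons. Of the counts, 39 of 56 stayed within a fixed factor of the main count or stayed at 0. The alternatives without the cluster led by Grik2 and with the deep clusters kept in their class were chosen after the data had been seen, and the cause of the changes was not tested. For RPC against RP in tumor-like nuclei, edgeR called 0 genes and DESeq2 629, and leaving out 1 animal gave 0 to 2 calls, with Rest between -0.32 and 0.43, Rbfox1 between -0.90 and 1.43, Elavl3 between -0.19 and 0.34 and Elavl4 between -0.19 and 0.18. Elavl4 was at 0.024 with DESeq2, 0.051 without the filter on low counts and 0.0046 over all kept nuclei. Rest was at -0.14 with even sublibraries, -0.085 without nuclei above 4 times the median depth and -0.14 without the cluster led by Grik2.

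In endothelial-like nuclei the 0 calls became 12 with DESeq2, 2 with RLE size factors, 105 without the filter, 3 at a clustering resolution of 0.8, 9 with deep clusters and 29 to 124 without 1 animal, where Rbfox1 ranged from -0.22 to 1.49 and Nova1 from -0.29 to 0.75. In macrophage- or monocyte-like nuclei the 3 calls became 29 with DESeq2, 211 without the filter and 5 to 129 without 1 animal, with Rbfox1 from -0.79 to 1.25. A replicate block on the shared numbers gave 0 calls in tumor-like, 1 in macrophage- or monocyte-like and 96 in endothelial-like nuclei and changed no call among the single-gene values of this contrast that were recomputed with it, but same-numbered animals did not deviate together (r = -0.04 over 20065 genes, which are not independent replicates), so they share a number only.

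Tumor-like against endothelial-like nuclei gave 2681 calls with deep clusters instead of 4236 and 3444 to 3732 without 1 animal, and tumor-like against fibroblast-like nuclei 1891 (without RP2) to 2592 instead of 2853. Ptbp2 turned to 0.050 and 0.13 without the filter and ranged from -0.14 to 0.091 and from -0.047 to 0.037 without 1 animal against smooth muscle- or pericyte-like and fibroblast-like nuclei. For the interaction with endothelial-like nuclei the 37 calls became 2 with DESeq2, 58 at a resolution of 0.8, 89 with deep clusters and 14 to 69 without 1 animal, with Ptbp2 from -0.21 to 0.32. For that with macrophage- or monocyte-like nuclei the 103 calls became 20 with DESeq2, 10 with deep clusters (Ptbp2 at 0.015) and 43 to 161 without 1 animal. Of the shares, 8 instead of 5 did not overlap without thinning (60.8% of all genes), when Rest, Celf3 and Celf4 turned to 0.21, 3.42 and 1.24 points, and 7 when thinned to 2000 (47.5% of all genes), with Rest at 0.10 points. Leaving out 1 animal gave 7 to 8 (71.6% to 75.7% of all genes), with Rest from -0.10 to 0.020, Rbfox1 from -11.1 to 22.6, Elavl3 from -0.51 to 7.39 and Elavl4 from -1.63 to 1.94 points. DESeq2 ended the calls of Nova1 against fibroblast-like and of Rbfox1 against fibroblast-like and smooth muscle- or pericyte-like nuclei. Leaving out RP1 or RPC1 ended that of Nova1, and leaving out RP2 or RPC1 that of Rbfox1 against smooth muscle- or pericyte-like nuclei. Keeping deep clusters ended those of Rbfox3 against macrophage- or monocyte-like (0.30) and endothelial-like nuclei (0.37). Calls were gained for Rbfox3 between genotypes in tumor-like nuclei with DESeq2, for Rbfox3 against smooth muscle- or pericyte-like nuclei without RP2, and for Rbfox1 between genotypes in the macrophage- or monocyte-like and the endothelial-like nuclei without RPC1. Each left-out animal leaves 1 animal in a genotype, which is then assumed to vary like the others.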

Other observations

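Tumor-like nuclei with a Rest transcript were few: 22 and 37 in RP1 and RP2 and 54 and 57 in RPC1 and RPC2. They were deeper than the rest of the same animal, with medians of 3256, 3475, 10488.5 and 6246 transcripts against 2322, 2247, 3313.5 and 2808. The markers of non-tumor cells summed to 2800.4, 2590, 4022 and 3435 CPM in them and to 2770, 2646, 4541 and 3333 CPM in the nuclei without Rest, so that they did not carry more of these markers in all animals. Neuroendocrine markers were lower in nuclei with Rest in 4 of 4 animals (6634, 6041, 8064 and 8636 against 7070, 7089, 8444 and 9106 CPM). Srrm4, the splicing activator that acts on Rest, was at 278, 367, 291 and 255 CPM in nuclei with Rest and at 356, 390.1, 306 and 248 CPM in those without it, lower in 3 of 4 animals. Celf3 was lower in 4 of 4 animals, at 122, 142, 130.4 and 136 CPM against 174, 157, 138 and 142 CPM. Elavl3 was higher in 4 of 4 animals, at 278, 277, 290.4 and 382 CPM against 264, 270.4, 243 and 345 CPM. Rbfox1 was higher in 3 of 4, at 461, 408, 483 and 1227 CPM against 471, 365, 228 and 1154 CPM. Rbfox3, Celf4 and Elavl4 were, like Srrm4, lower in 3 of 4 animals. Nova1 and Ptbp2 were higher in some animals and lower in others. The share of all genes with such directions was not computed. The nuclei with Rest number 22 to 57 per animal, and the counting error of their sums was not computed. Nuclei were chosen by their Rest count and differ in depth, so no test was run.

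The wells of the first barcoding round, of which an animal had 2 or 3, gave a spread within animals. Rbfox3 was at 34.8 and 58.8 CPM in the wells of RP1, a wider gap than between the animals of either genotype. Celf3 was at 103 and 220 CPM in the wells of RP1 and at 115 and 191 CPM in those of RP2, which spans the difference between RP and RPC. Ptbp2 was at 136 to 166 CPM in the 4 wells of the RP animals, at 218 to 273 CPM in the 3 wells of RPC1 and at 221 and 258 CPM in those of RPC2. The wells of the genotypes did not overlap for Ptbp2, for Nova1 (104 to 131 CPM in RP, 149 to 258 CPM in RPC) or for Rbfox3 (34.8 to 58.8 CPM in RP, 22.8 to 28.7 CPM in RPC). The share of all genes with such wells was not computed. Wells divide the same animals, so they are not replicates of a genotype.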
